A study of Mus musculus with 6 samples.

Results

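The collagen chain genes of the developing molar epithelium were examined in RNA‐seq libraries of mice with and without epithelial Kdf1. The members were all genes of the deposited table whose symbol is Col, a number, the letter a and a number, with the exception of Col17a1, a transmembrane collagen of hemidesmosomes. This rule uses names alone, and it found 43 of the 18152 genes of the table. By class, 11 were fibrillar chains, 8 were chains of the network-forming types IV and VIII, 6 were type VI chains and 18 belonged to other types. The libraries came from the inner enamel epithelium (IEE), the layer that gives rise to ameloblasts, of the mandibular first molar at E18.5. It was cut out by laser capture microdissection, in which cells at the border of the captured area can be included. There were 3 libraries of Kdf1 fl/fl mice, which the sample labels call wild type, and 3 of K14-Cre;Kdf1 fl/fl mice (cKO), all of C57BL/6J background. In the cKO mice, the keratin 14 promoter drives Cre recombinase in epithelial cells, where it acts on the floxed Kdf1 gene, and not in the mesenchyme. The sources used here do not state whether a library held 1 embryo or several, so the p values measure the spread between these libraries.

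Library totals lay between 14713939 and 16675154 estimated counts, and a count of 0 therefore allowed up to 0.198 CPM (counts scaled to equal library size) in the smallest library, for counting error only. Kdf1 itself was at 52.5, 44.3 and 52.7 CPM in the controls and at 0, 0.0629 and 0 CPM in the cKO libraries. The cKO level was at least 252-fold lower against the floor of 3 counts per library (edgeR quasi-likelihood test with Benjamini-Hochberg adjustment, adjusted p = 0.000288). The labels therefore match the targeted gene in all 6 libraries. Of the 11 markers of dental epithelium, which included Krt14 and Cdh1, all were detected in every library, and their summed level was 14948 to 28225 CPM in the controls and 6626 to 11024 CPM in the cKO group. This sum included Amelx, the amelogenin gene of differentiating ameloblasts, at 1244, 4584 and 10696.5 CPM in the controls. In the cKO libraries Amelx was at 2.59, 51.8 and 224 CPM. On average 10 of the 11 markers were lower in the cKO group and 1 was higher. Markers of mesenchyme, bone, endothelium, pericytes and immune cells were detected as well, and their levels are given with the collagen results.

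Collagens are secreted proteins in which 3 alpha chains wind around each other into a helix. Fibrillar collagens such as types I, III and V assemble into the fibres of connective tissue, dentine and bone, whereas type IV collagen forms the sheet-like network of basement membranes and type VI collagen forms beaded microfilaments around cells. Other collagens attach to the surface of fibrils (FACITs), span the plasma membrane, or anchor the basement membrane to the underlying matrix, as type VII collagen does. In the tooth germ, a basement membrane separates the IEE from the dental papilla, whose outer cells become odontoblasts and secrete a matrix rich in type I collagen. Fibrillar collagens are in the main products of mesenchymal cells, and epithelial cells contribute to types IV, VII and XVIII.

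Per length, the type I chains were the most abundant collagen transcripts in both groups. Col1a1 was at 628, 4161 and 2363 TPM (transcripts scaled for length and library) in the controls and at 1479, 1728 and 2089 TPM in the cKO libraries. Col1a2, its partner in type I collagen, was at 284, 2039.6 and 1406 TPM in the controls and 1259.7, 587 and 854 TPM in the cKO group. Both genes ranged widely among the controls, and the cKO values lay inside that range. In the controls, the next highest mean levels were those of Col27a1 (287 TPM), Col4a1 (259 TPM), Col18a1 (226 TPM), Col4a2 (201 TPM), Col22a1 (182 TPM), Col9a3 (147 TPM), Col3a1 (133 TPM) and Col7a1 (102 TPM). In the cKO group the order of the mean TPM levels was different. Col3a1 stood 3rd of the 43 genes instead of 9th, Col6a2 8th instead of 15th, Col6a1 9th instead of 16th and Col12a1 11th instead of 21st. Col9a3 stood 17th instead of 8th, Col7a1 18th instead of 10th and Col22a1 12th instead of 7th. These places rest on means of 3 libraries each.

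The summed level of all 43 collagen genes did not separate the groups. It was 3036, 8822 and 5634 TPM in the controls and 8202, 5827 and 5053 TPM in the cKO libraries, which was between 0.304% and 0.882% of all transcripts. Without the type I chains, the sums were 2124, 2621 and 1865 TPM in the controls and 5463, 3513 and 2110 TPM in the cKO group, of which only the last lay within the control range. Control replicate 1 was the lowest library for the fibrillar sum at 1458 TPM, and control replicate 2 the highest at 7227 TPM. The summed type VI chains were at 104, 232 and 83.2 TPM in the controls and at 761, 497 and 230 TPM in the cKO libraries. For this class the lowest cKO library lay just under the highest control library.

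**Figure D1:**
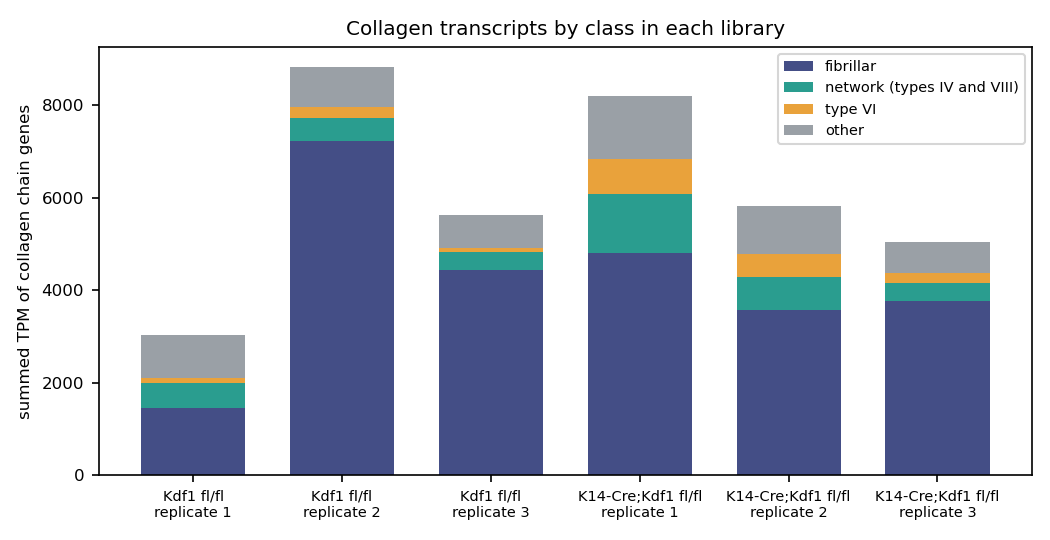
Stacked bars of the summed TPM of the fibrillar, network, type VI and other collagen genes in each of the 3 Kdf1 fl/fl and 3 cKO libraries. The total is lowest in control replicate 1 (3036 TPM) and highest in control replicate 2 (8822 TPM), and the 3 cKO libraries (8202, 5827 and 5053 TPM) lie between them.

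Between the genotypes, the type III chain Col3a1 and the type VI chains Col6a1, Col6a2 and Col6a5 were higher in every cKO library than in every control, with means 5.01-fold higher for Col3a1 and 3.75-fold higher for Col6a1. The type I chains overlapped between the groups, and the FACIT chain Col9a3 (2.27-fold lower) and the anchoring fibril chain Col7a1 (1.76-fold lower) were lower in every cKO library. Bulk libraries of a captured area cannot tell fewer cells of a type from less RNA per cell. After removal of genes with few counts, 39 of the 43 collagen genes were tested. The chains left out were Col6a6, Col9a1 with 0 to 38 counts per library, Col10a1 with 1 to 4 and Col19a1 with 1 to 105. The criterion was a log2 fold change of 1 or more in either direction at an adjusted p of 0.05 or less. No collagen gene met it in edgeR's quasi-likelihood test, in which 0.432% of all 14131 tested genes did, 0.142% higher and 0.290% lower. At an unadjusted p of at most 0.05, 21 of the 39 genes were counted, 15 of them higher and 6 lower in the cKO libraries, where 13.0% of all tested genes were higher and 11.6% lower. The median log2 fold change of the 39 genes was 0.89, and that of all tested genes was −0.00. On average, 27 collagen genes were higher and 12 lower in the cKO group. The 3 cKO values lay above all 3 control values for 11 genes and below them for 4 genes, where the shares over all tested genes were 14.5% and 16.2%.

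The outcome of the test depended on the fit. In these same counts, the deviations of libraries with the same number correlated positively for all 3 numbers. The sum of these correlations was the highest of 6 pairings. With so few pairings this check cannot show that the numbers mark pairs, and the labels do not say so. When the replicate number was added to edgeR as a block, 11 of the 39 collagen genes passed the criterion, as did 6.09% of all tested genes. Of the 11, 10 were higher (4.16% of all tested genes) and 1 was lower (1.92%). DESeq2 without the block passed 10 collagen genes and 6.94% of all tested genes, with 9 collagen genes higher (5.05% of all) and 1 lower (1.88%). The genes past the criterion in both fits were Col3a1, Col4a6, Col6a1, Col6a2, Col6a3, Col6a5, Col13a1, Col26a1 and Col9a3, of which Col9a3 alone was lower. Col8a2 and Col9a2 passed only with the block, and Col5a2 only in DESeq2. With limma, 1 gene (Col9a3) passed on log2(TPM + 0.1) and none on log2(TPM + 1). The call in edgeR without the block also turned on 1 library. Of the 27 collagen genes that were higher on average, 25 had their lowest cKO value in cKO replicate 3 and 19 their highest in cKO replicate 1. Over all tested genes that were higher on average, these shares were 44.3% and 38.2%. Without cKO replicate 3, 8 collagen genes passed (3.23% of all tested genes), and without cKO replicate 1 none did (0.00700%).

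**Figure D2:**
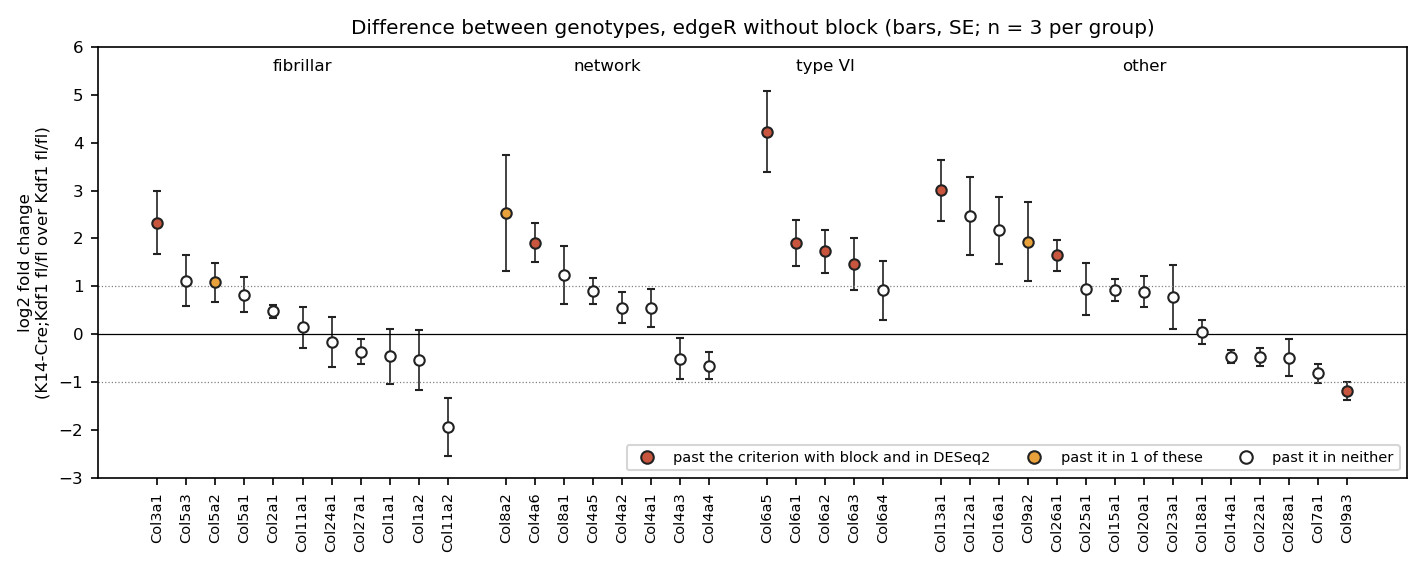
Log2 fold change (K14-Cre;Kdf1 fl/fl over Kdf1 fl/fl, edgeR without block) with its SE as bars for each of the 39 tested collagen genes, by class; the colour gives whether a gene passed the criterion with the replicate block and in DESeq2, in 1 of them or in neither. Values run from −1.94 (Col11a2) to 4.23 (Col6a5), all 5 type VI chains lie above 0, and the fibrillar chains lie on both sides of it.

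The promoters of 4 chains are shown because these genes represent the patterns described next. Col3a1 and Col6a1 were higher in every cKO library, Col7a1 was lower in every cKO library, and Col1a2 overlapped between the groups. The 150 bases before the RefSeq start are given 5′ to 3′ on the strand of the gene, from chr1:45311388-45311537 (Col3a1, plus strand), chr10:76726045-76726194 (Col6a1, minus strand), chr6:4505468-4505617 (Col1a2, plus strand) and chr9:108953436-108953585 (Col7a1, plus strand) of GRCm38.p6. Capitals mark a TATA match in Col3a1, an AP-1 match in Col6a1, a CCAAT match in Col1a2 and a GC box match in Col7a1.
Col3a1: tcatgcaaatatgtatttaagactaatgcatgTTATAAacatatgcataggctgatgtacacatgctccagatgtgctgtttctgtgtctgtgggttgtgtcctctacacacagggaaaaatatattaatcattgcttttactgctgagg
Col6a1: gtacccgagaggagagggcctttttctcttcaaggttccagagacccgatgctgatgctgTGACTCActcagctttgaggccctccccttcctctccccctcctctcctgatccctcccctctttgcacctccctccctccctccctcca
Col1a2: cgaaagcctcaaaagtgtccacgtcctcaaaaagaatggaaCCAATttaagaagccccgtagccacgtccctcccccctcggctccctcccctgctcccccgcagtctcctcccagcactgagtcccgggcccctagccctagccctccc
Col7a1: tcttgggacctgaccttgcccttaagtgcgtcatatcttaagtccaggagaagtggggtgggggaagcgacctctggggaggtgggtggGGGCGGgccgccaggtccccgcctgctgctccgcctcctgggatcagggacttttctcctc
Each match is a description of the letters and not a site of binding. RefSeq windows of 300 bases, 250 before and 50 after the start, were matched by symbol for 34 of the 43 collagen genes, with 37 windows in all, and were searched on both strands. The letters GGGCGG were in 62.2% of the collagen windows and in 35.7% of all windows. CCAAT was in 32.4% of the collagen windows (37.4% of all), TGACTCA in 2.70% (5.20% of all) and TATAA in 16.2% (24.9% of all). The single collagen window with TGACTCA was that of Col6a1, and the capitals of Col3a1 hold TATAA on both strands. The starts of Col4a1 and Col4a2 lay 21 bases apart, and those of Col4a5 and Col4a6 lay 1343 bases apart, both pairs head to head.

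Among the fibrillar chains, type III collagen stood out. Col3a1 (gene identifier 12825), the single chain of type III collagen that shares fibrils with type I, was at 282, 719.6 and 202 CPM in the controls and at 3274, 2024 and 733 CPM in the cKO libraries. Every cKO value lay above every control value, although cKO replicate 3 exceeded control replicate 2 by little. The mean was 401 ± 279 CPM (SD, n = 3) in the controls and 2010.3 ± 1270.5 CPM in the cKO group, or 5.01-fold higher, and the log2 fold change was 2.32 (standard error 0.66). The adjusted p was 0.105 in edgeR, 0.0324 with the block and 0.0303 in DESeq2. Leaving out any 1 library gave log2 fold changes of 1.78 to 3.05. In the same libraries, 10 of 12 markers of dental mesenchyme and odontoblasts were higher on average (median log2 fold change 1.49). The 2 lower ones were Dcn (log2 fold change −0.05) and the odontoblast gene Dspp (−3.45), which was lower in every cKO library. The part of these markers in the Col3a1 difference was not tested.

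The type I chains, products of osteoblasts, odontoblasts and fibroblasts, overlapped between the groups. Col1a1 was at 2062, 12956 and 8374 CPM in the controls and at 4368, 5559.8 and 7036 CPM in the cKO libraries, with a log2 fold change of −0.46 (standard error 0.58) and an adjusted p of 0.658 in edgeR. The highest and the lowest value were both in controls, and without control replicate 2 the log2 fold change was 0.11. Col1a2 was at 816, 5556 and 4359 CPM in the controls and 3256, 1652 and 2516 CPM in the cKO libraries, with a log2 fold change of −0.53 (standard error 0.63) and an adjusted p of 0.636 in edgeR. The same shape over the control libraries, lowest in replicate 1 and highest in replicate 2, was seen for Col11a1 (113, 398 and 215 CPM) and Col24a1 (56.3, 215 and 123 CPM), a fibrillar chain of bone. Their cKO values were 316, 299.7 and 187 CPM and 59.99, 127 and 166 CPM, and both overlapped the controls. Their log2 fold changes, 0.14 and −0.16, changed sign when 1 library was left out, to −0.20 for Col11a1 without control replicate 1 and to 0.38 for Col24a1 without control replicate 2 and 0.16 without cKO replicate 1. Col11a2, the second chain of type XI collagen, was at 56.5, 311 and 309 CPM in the controls and 45.4, 47.4 and 83.0 CPM in the cKO libraries. It had the lowest log2 fold change of all collagen genes, −1.94 (standard error 0.61), but control replicate 1 lay within the cKO values and the adjusted p was 0.124 in edgeR.

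Type V collagen, which is built into type I fibrils and limits their width, was higher on average for all 3 chains. Col5a2 was at 168, 472 and 268 CPM in the controls and at 905, 573 and 448 CPM in the cKO libraries. The groups overlapped by 1 library, the log2 fold change was 1.08 (standard error 0.41), and the adjusted p was 0.168 in edgeR, 0.148 with the block and 0.0484 in DESeq2. Col5a1 was at 258, 419.6 and 247 CPM and 776, 575 and 291 CPM, with a log2 fold change of 0.83 (standard error 0.37) with an adjusted p of 0.223 in edgeR. Col5a3 was at 11.7, 11.8 and 10.04 CPM in the controls and 47.5, 14.73 and 10.6 CPM in the cKO libraries, and its log2 fold change was 1.12, or 0.19 without cKO replicate 1. Col27a1, a fibrillar chain known from cartilage, was at 1124, 1029 and 1348 CPM in the controls and at 976, 591 and 1156 CPM in the cKO libraries (log2 fold change −0.36, standard error 0.26, edgeR adjusted p = 0.420). Col2a1, the chain of cartilage collagen, was low but tight within groups, with 22.1, 23.5 and 20.02 CPM in the controls and 31.1, 31.1 and 29.1 CPM in the cKO libraries. Its groups did not overlap, and its log2 fold change of 0.48 (standard error 0.13) was under the limit of 1, with an adjusted p of 0.0941 in edgeR and 0.0198 in DESeq2. Over the 11 fibrillar chains the median log2 fold change was 0.14, with 6 higher and 5 lower, and it turned to −0.20 without control replicate 1. Past the criterion were 1 of the 11 with the block (9.09%, beside 6.09% of all tested genes) and 2 in DESeq2 (18.2%, beside 6.94%).

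**Figure D3:**
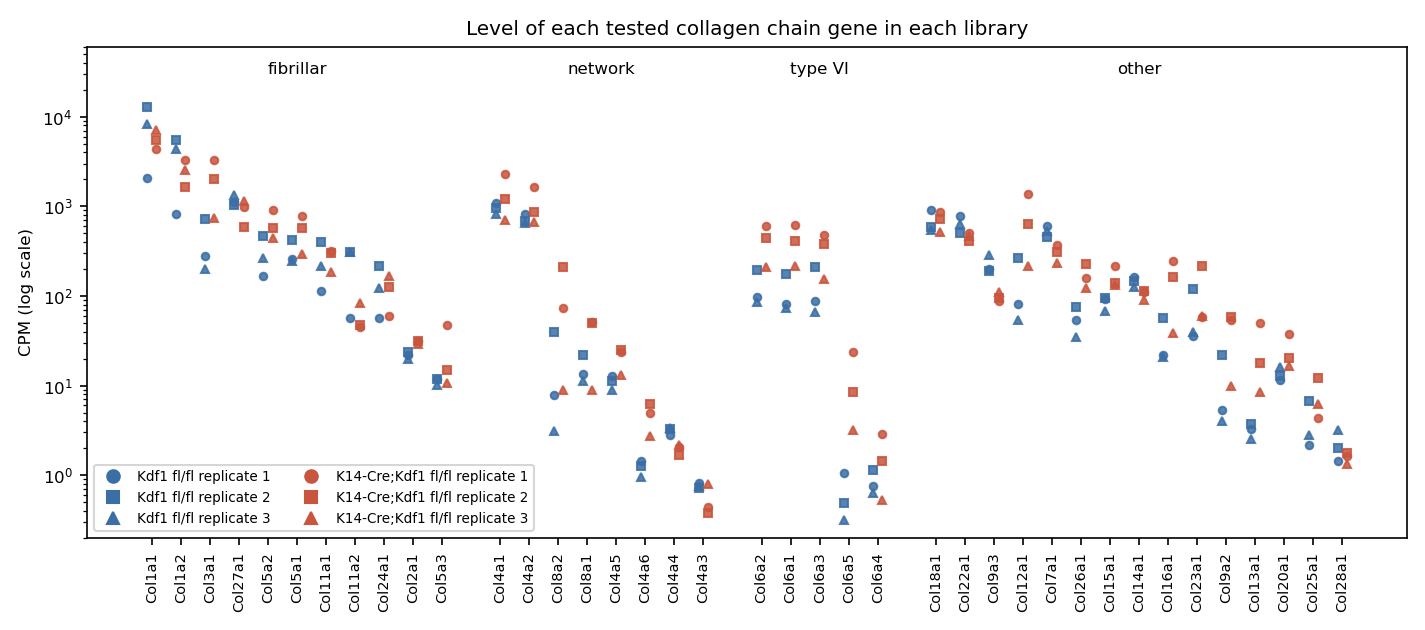
CPM on a log axis of the 39 tested collagen genes in the 3 Kdf1 fl/fl and 3 cKO libraries, each point a library, with genes ordered by class and level and replicates told apart by the shape of the point. Col3a1, Col6a1 and Col6a5 have all cKO points above all control points, Col9a3 has all cKO points below, and Col1a1 and Col1a2 overlap.

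The type VI chains were the class with the highest median log2 fold change, 1.73 over the 5 tested genes. Type VI collagen is assembled from a Col6a1, a Col6a2 and a further chain, which is Col6a3 or one of the later found chains Col6a4, Col6a5 and Col6a6. Col6a1 (gene identifier 12833) was at 81.2, 177 and 72.7 CPM in the controls and at 612, 415 and 213 CPM in the cKO libraries, a mean of 110.3 ± 57.8 CPM against 414 ± 199.5 CPM (SD, n = 3), or 3.75-fold higher. Col6a2 was at 98.1, 194 and 86.1 CPM in the controls and at 607, 438 and 212 CPM in the cKO libraries. For both genes the lowest cKO library, replicate 3, lay above the highest control library, replicate 2.

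The log2 fold change of Col6a1 was 1.91 (standard error 0.47), with an adjusted p of 0.0842 in edgeR, 0.0295 with the block and 0.000494 in DESeq2. That of Col6a2 was 1.73 (standard error 0.45), with adjusted p values of 0.0891, 0.0303 and 0.00111 in the same edgeR, blocked and DESeq2 fits. Both chains thus passed the criterion in the blocked fit and in DESeq2. Col6a3 was at 88.7, 213 and 66.3 CPM in the controls and 481, 375 and 154 CPM in the cKO libraries, where replicate 3 lay below control replicate 2. Its log2 fold change was 1.46 (standard error 0.54), and the adjusted p was 0.163 in edgeR, 0.0445 with the block and 0.0291 in DESeq2. Col6a5 was near the floor in the controls at 1.07, 0.485 and 0.316 CPM and was at 23.9, 8.43 and 3.16 CPM in the cKO libraries. It had the highest log2 fold change of all collagen genes, 4.23 (standard error 0.85), with an adjusted p of 0.0663 in edgeR, 0.00423 with the block and 2.22e-06 in DESeq2. Col6a4 stayed low in all libraries, with 0.753, 1.15 and 0.632 CPM and 2.85, 1.45 and 0.527 CPM, and overlapped between the groups (log2 fold change 0.92, standard error 0.62, edgeR adjusted p = 0.395). Col6a6 had between 0 and 7 counts per library and was not tested. Of the 5 tested chains, 4 passed with the block (6.09% of all tested genes) and the same 4 in DESeq2 (6.94%). The 12 mesenchyme and odontoblast markers had a median log2 fold change of 1.49, with 10 higher on average. The other 2, Dcn and Dspp, were lower, and Dspp was lower in every cKO library (log2 fold change −3.45). The part of these markers in the type VI differences was not tested.

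Of the network-forming chains, the abundant pair of type IV collagen and its scarcer chains differed in their values. Col4a1 and Col4a2 form the common type IV molecule of basement membranes. Col4a1 was at 1093, 956 and 820.4 CPM in the controls and at 2271, 1221 and 709 CPM in the cKO libraries. Col4a2 was at 829, 689 and 659 CPM and 1648, 868 and 676 CPM. Both genes were highest in cKO replicate 1, and cKO replicates 2 and 3 lay near the controls. The log2 fold change was 0.55 (standard error 0.39) for Col4a1 (edgeR adjusted p = 0.422) and 0.55 (standard error 0.32) for Col4a2 (edgeR adjusted p = 0.332), and without cKO replicate 1 the values were 0.03 and 0.11. The summed endothelial markers were also highest in cKO replicate 1, at 1025 CPM, and their part in the type IV values was not tested.

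Col4a5 and Col4a6 are the chains of the type IV molecule found in basement membranes of skin and other epithelia. Col4a6 was at 1.44, 1.27 and 0.948 CPM in the controls and at 4.94, 6.23 and 2.70 CPM in the cKO libraries. Its groups did not overlap, and the log2 fold change was 1.91 (standard error 0.40), with an adjusted p of 0.0680 in edgeR, 0.0225 with the block and 0.00146 in DESeq2. Col4a5 was at 12.9, 11.3 and 8.97 CPM and 23.4, 25.2 and 13.3 CPM, again without overlap. Its log2 fold change of 0.90 (standard error 0.28) was under the limit of 1, with adjusted p values of 0.120 in edgeR, 0.0378 with the block and 0.0308 in DESeq2. Col4a3 and Col4a4, the partners of Col4a5 in kidney and other organs, were both lower on average. Col4a4 was at 2.83, 3.27 and 3.35 CPM in the controls and 2.09, 1.70 and 2.18 CPM in the cKO libraries (log2 fold change −0.66, standard error 0.28, edgeR adjusted p = 0.201), and Col4a3 did not exceed 0.816 CPM in any library. The 2 chains of type VIII collagen, a short-chain collagen of vessel walls and the cornea, varied strongly within the cKO group. Col8a2 was at 7.91, 39.4 and 3.10 CPM in the controls and 74.1, 209.7 and 8.97 CPM in the cKO libraries. In both groups replicate 2 was the highest and replicate 3 the lowest. The log2 fold change was 2.54 (standard error 1.21), and the adjusted p of Col8a2 was 0.245 in edgeR, 0.222 in DESeq2 and 0.0131 with the block. Without cKO replicate 2 the log2 fold change was 1.32, and without control replicate 2 it was 4.14. Col8a1 was at 13.6, 22.0 and 11.2 CPM and 51.1, 49.8 and 9.03 CPM, with a log2 fold change of 1.23 (standard error 0.61) and an adjusted p of 0.258 in edgeR.

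The FACITs, which attach to fibrils, had values in both directions. Col9a3 (gene identifier 12841), a chain of type IX collagen, was at 198, 188 and 284 CPM in the controls and at 88.7, 95.3 and 110.4 CPM in the cKO libraries. All cKO values lay below all control values, and the means were 223 ± 52.7 CPM and 98.1 ± 11.1 CPM (SD, n = 3), or 2.27-fold lower. The log2 fold change was −1.18 (standard error 0.19), with an adjusted p of 0.0512 in edgeR, which missed the limit by little, 0.00697 with the block and 4.25e-06 in DESeq2. Another type IX chain, Col9a2, was higher on average. It was at 5.40, 22.2 and 3.98 CPM in the controls and 53.2, 57.5 and 9.82 CPM in the cKO libraries (log2 fold change 1.93, standard error 0.83, edgeR adjusted p = 0.208 and 0.0445 with the block), and Col9a1 was not tested. In 3 of the 6 libraries the level of Col9a2 was under 10 CPM, and without control replicate 2 its log2 fold change was 3.09. The markers of dental epithelium were lower on average for 10 of 11 genes (median log2 fold change −0.83), and their part in the Col9a3 difference was not tested.

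Col12a1, a FACIT of tendon and other dense connective tissue, was at 80.8, 262 and 53.7 CPM in the controls and at 1357, 630.3 and 215 CPM in the cKO libraries. Its cKO values covered a wide span, and replicate 3 lay below control replicate 2. The log2 fold change of 2.47 (standard error 0.81) had an adjusted p of 0.132 in edgeR, 0.0524 with the block and 0.0728 in DESeq2. Col16a1 followed the same order of libraries with 21.8, 57.4 and 20.6 CPM and 248, 163 and 38.2 CPM (log2 fold change 2.17, standard error 0.70, edgeR adjusted p = 0.130). In contrast, Col14a1 was lower in every cKO library, with 164, 148 and 125 CPM against 111, 114 and 91.0 CPM, a log2 fold change of −0.47 (standard error 0.14) and an adjusted p of 0.121 in edgeR and 0.0473 with the block. Col22a1, a FACIT of tissue junctions, was at 784, 499 and 629 CPM and 501, 414 and 468 CPM, with 1 control within the cKO values (log2 fold change −0.47, standard error 0.19, edgeR adjusted p = 0.184). Col20a1, a further FACIT, was at 11.6, 12.8 and 15.9 CPM in the controls and at 38.0, 20.1 and 16.6 CPM in the cKO libraries. Its groups did not overlap, by a narrow margin, and its log2 fold change was 0.89 (standard error 0.33) with an adjusted p of 0.156 in edgeR.

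Col7a1, the chain of the anchoring fibrils beneath epithelial basement membranes, was lower in every cKO library. It was at 611, 458 and 536 CPM in the controls and at 369, 309.9 and 233 CPM in the cKO libraries. The log2 fold change was −0.82 (standard error 0.20), under the limit of 1, with adjusted p values of 0.0837 in edgeR, 0.0302 with the block and 0.00510 in DESeq2. The lower dental epithelium markers given for Col9a3 apply here too, and their part was again not tested. The basement membrane collagens XV and XVIII, which carry glycosaminoglycan chains, differed from it and from each other. Col18a1 was at 901, 585 and 551 CPM and 861, 716 and 521 CPM, with a log2 fold change of 0.04 (standard error 0.26). Col15a1 was higher in every cKO library, with 92.4, 95.5 and 67.8 CPM in the controls and 216, 138 and 133 CPM in the cKO libraries (log2 fold change 0.93, standard error 0.23, edgeR adjusted p = 0.0837, 0.0208 with the block and 0.00454 in DESeq2).

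Of the collagens that span the plasma membrane, Col13a1 was at 3.26, 3.69 and 2.53 CPM in the controls and at 49.7, 18.1 and 8.50 CPM in the cKO libraries. Its groups did not overlap, and its log2 fold change was 3.00 (standard error 0.64), with an adjusted p of 0.0692 in edgeR, 0.0233 with the block and 1.36e-05 in DESeq2. The other membrane collagens overlapped between the groups. Col23a1 was at 35.5, 120.2 and 39.7 CPM in the controls and 57.8, 218 and 59.5 CPM in the cKO libraries, higher in the cKO library of each replicate number. Its log2 fold change was 0.78 (standard error 0.67), under the limit of 1, with an adjusted p of 0.507 in edgeR and 0.0188 with the block. Without cKO replicate 2 it turned to −0.13, and without control replicate 2 it was 1.57. Col25a1 was at 2.20, 6.78 and 2.78 CPM and 4.37, 12.2 and 6.20 CPM (log2 fold change 0.95, standard error 0.54, edgeR adjusted p = 0.321). Apart from the membrane collagens, Col26a1 was at 53.8, 75.7 and 34.5 CPM in the controls and at 160.5, 229.7 and 123 CPM in the cKO libraries. Its lowest cKO value exceeded its highest control value. Its log2 fold change was 1.64 (standard error 0.33), with an adjusted p of 0.0668 in edgeR, 0.00354 with the block and 6.20e-05 in DESeq2. Col28a1, also not a membrane collagen, was low, at 1.44, 2.00 and 3.22 CPM in the controls and 1.65, 1.76 and 1.32 CPM in the cKO libraries (log2 fold change −0.49, standard error 0.39, edgeR adjusted p = 0.468).

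The ratio of chains that share a molecule, a fibril or a network was compared per length for 9 of 10 planned pairs, with an exact two-sided permutation test that cannot give a p below 0.1 with 3 libraries against 3. The tenth pair, Col9a1 to Col9a3, was left out because Col9a1 was at 0 in some libraries. In the controls, the TPM of Col4a5 was 8.85, 8.89 and 9.54 times that of Col4a6, and in the cKO libraries it was 4.85, 4.05 and 4.85 times. The groups did not overlap, with a difference of −0.99 in mean log2 ratio (exact permutation p = 0.1, adjusted over the 9 pairs p = 0.3). These ratios rest on few counts, since Col4a6 had 23, 21 and 15 counts in the controls. With 0.1 added to TPM the difference was −0.74. Col6a1 was at 0.781, 0.859 and 0.797 times the TPM of Col6a2 in the controls and at 0.950, 0.892 and 0.944 times in the cKO libraries, a log2 difference of 0.19 (exact permutation p = 0.1, adjusted p = 0.3). Col6a3 was at 0.454, 0.508 and 0.394 times the TPM of Col6a1 in the controls and at 0.333, 0.393 and 0.316 times in the cKO libraries, a log2 difference of −0.38 (exact permutation p = 0.1, adjusted p = 0.3). These 3 pairs were the ones whose groups did not overlap.

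Col3a1 relative to Col1a1 was at 0.146, 0.0594 and 0.0258 in the controls and at 0.801, 0.389 and 0.111 in the cKO libraries. The log2 difference was 2.42 (exact permutation p = 0.2, adjusted p = 0.45), and in each replicate number the cKO ratio was the higher one. The ratio of Col1a1 to Col1a2 was 2.21, 2.04 and 1.68 in the controls and 1.17, 2.94 and 2.45 in the cKO libraries, so the control values lay between the lowest and the highest cKO values (log2 difference 0.05, exact permutation p = 0.9, adjusted p = 0.9). For Col4a1 to Col4a2 the ratio lay between 1.21 and 1.35 in the controls and between 1.02 and 1.37 in the cKO libraries (log2 difference −0.05, exact permutation p = 0.9, adjusted p = 0.9). The remaining 3 pairs, Col5a1 to Col5a2, Col5a1 to Col1a1 and Col4a5 to Col4a1, had log2 differences of −0.39, 0.89 and 0.48, with exact permutation p values of 0.4, 0.3 and 0.4 (adjusted p = 0.514 for each).

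**Figure D4:**
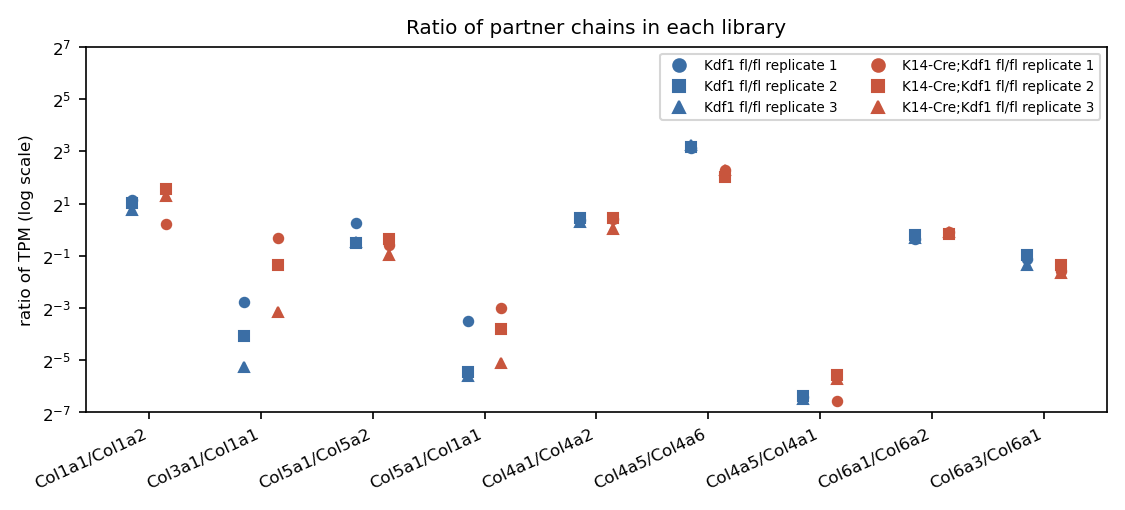
TPM ratio on a log axis of 9 pairs of collagen chains in each of the 3 Kdf1 fl/fl and 3 cKO libraries. The Col4a5 to Col4a6 ratio is 8.85 to 9.54 in the controls and 4.05 to 4.85 in the cKO libraries, whereas the Col1a1 to Col1a2 and Col4a1 to Col4a2 ratios overlap.

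Markers of dental epithelium and of other cell types were read in the same libraries as the collagens. Pdgfrb, a receptor of pericytes and fibroblasts, was at 38.2, 56.2 and 28.7 CPM in the controls and 273, 151 and 69.1 CPM in the cKO libraries. Prrx1, a transcription factor of mesenchyme, was at 21.9, 40.3 and 15.5 CPM and 266, 116 and 86.0 CPM. Both, named after their values were seen, were highest in cKO replicate 1 and lowest of the cKO group in cKO replicate 3, as Col3a1, Col6a1, Col6a2 and Col6a3 were. This order was seen for 7 of 7 immune, 8 of 9 endothelial and 5 of 7 pericyte and smooth muscle markers. None of the 11 dental epithelium markers, all highest in cKO replicate 3, had this order. Of the 12 markers of dental mesenchyme and odontoblasts, 4 had this order, Prrx1 included, whereas 6 were highest in cKO replicate 2 and 2 in cKO replicate 3. On average 10 of the 12 were higher, with a median log2 fold change of 1.49. All 3 cKO values lay above the controls for 7 of them (14.5% of all tested genes) and below for 1, Dspp (16.2%). Their summed level, of which Dspp, the odontoblast dentine sialophosphoprotein gene, made up a large share in the controls, was 959 to 4150 CPM in the controls and 1593 to 2525 CPM in the cKO group.

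Dspp was at 484, 1932 and 3488 CPM in the controls and 16.01, 76.5 and 449 CPM in the cKO libraries. Dmp1, a matrix gene of bone and dentine cells, was at 34.5, 343 and 250.4 CPM and 38.6, 54.7 and 127 CPM. Like Col1a1, Col1a2, Col11a2 and Col24a1, both were lowest of the controls in replicate 1. So were the dental epithelium markers Amelx (1244, 4584 and 10696.5 CPM) and Ambn (156, 739 and 1648 CPM). The bone marker Ibsp was instead highest of the controls in replicate 1, at 119, 99.8 and 95.3 CPM. The 7 bone markers had a median log2 fold change of −0.93 and sums of 1020 to 1748 CPM in the controls and 791 to 1065 CPM in the cKO group, with 5 of them lower on average. Alpl was the largest part of these sums, at 772, 898 and 876 CPM in the controls and 426, 443 and 466 CPM in the cKO libraries. The median is the value of Alpl, whereas Ibsp and Ifitm5 were higher on average.

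All 9 endothelial markers were higher on average, with sums of 303 to 383 CPM in the controls and 352 to 1025 CPM in the cKO group. The 7 markers of pericytes and smooth muscle, 6 of them higher, summed to 445 to 504 CPM and 468 to 1407 CPM. In both lists cKO replicate 1 had the highest sum, and it was the highest library for Col4a1 and Col4a2 too. All 7 immune markers were higher on average, with sums of 32.9 to 67.4 CPM and 50.9 to 196 CPM. For cartilage, Matn1, Matn3 and Cnmd were at 0 in some libraries, and the sum of the 6 measured markers was 12.6 to 66.0 CPM in the controls and 26.96 to 182 CPM in the cKO group. Most of this sum was Hapln1, at 15.4, 64.8 and 12.3 CPM in the controls and 25.8, 178 and 24.9 CPM in the cKO libraries. The 6 skeletal muscle markers, with Myog at 0 in some libraries, summed to 1.94 to 5.40 CPM and 3.89 to 13.04 CPM, the 5 Schwann and neural markers to 113 to 163 CPM and 75.1 to 107 CPM, and the 4 erythroid markers to 355 to 586 CPM and 358 to 579 CPM. Of the 11 dental epithelium markers, 10 were lower on average, with a median log2 fold change of −0.83, and Krt14 was at 1265, 1121 and 2315 CPM in the controls and 455, 399 and 811 CPM in the cKO libraries. The part of these cell type markers in the collagen differences was not tested.

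**Figure D5:**
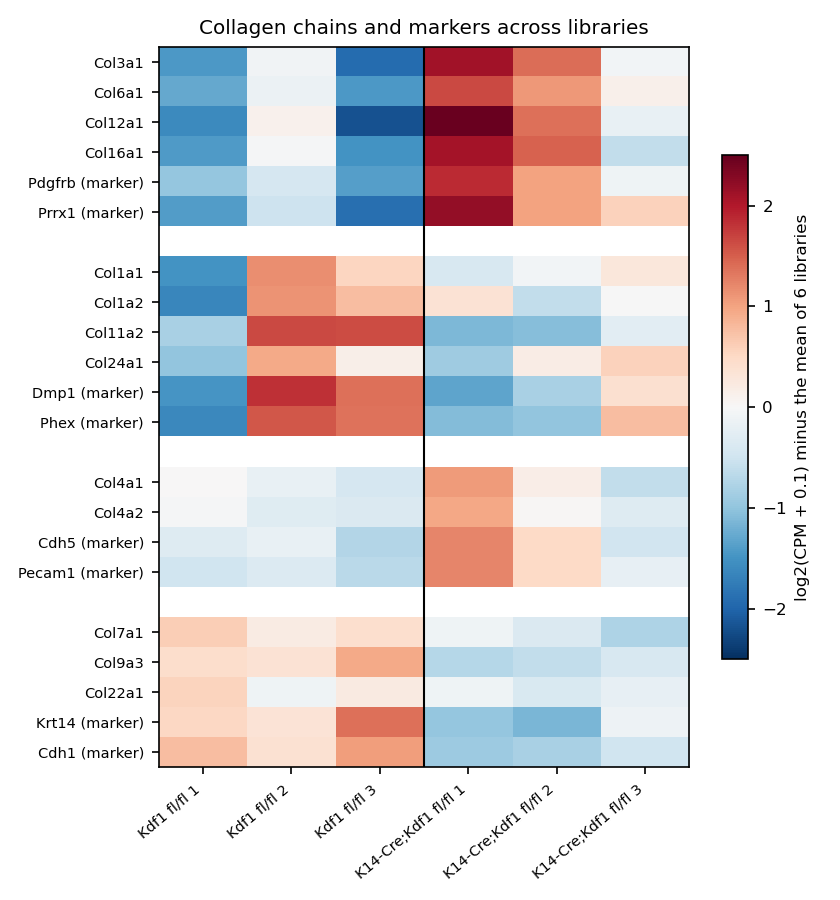
Heat map of log2(CPM + 0.1) minus the mean of the 6 libraries for collagen genes and cell type markers (rows), chosen after their values were seen, in the 3 Kdf1 fl/fl and 3 cKO libraries (columns). Col3a1, Col6a1, Col12a1 and Col16a1 are highest in cKO replicate 1, as are Pdgfrb and Prrx1 (4 of the 12 markers of mesenchyme and odontoblasts are highest there). The endothelial markers Cdh5 and Pecam1 are highest there too. Col1a1, Col1a2 and Col11a2 are lower in control replicate 1 than in the other controls, as are Dmp1 and Phex. Of markers not shown, Amelx and Ambn are also lowest of the controls there, and Ibsp is highest.

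The enzymes that modify, fold, cut and crosslink collagen chains, together with collagen receptors, made up a list of 40 genes, all of which were tested. None passed the criterion in edgeR (0.432% of all tested genes), whereas 13 had an unadjusted p of at most 0.05 (24.5% of all), 6 higher and 7 lower. With the replicate block 5 passed, or 12.5% of the list beside 6.09% of all tested genes, P4ha3 and Loxl1 higher and P4ha2, Itga1 and Itga2 lower. DESeq2 passed 7, or 17.5% beside 6.94% of all, which were the same 5 genes together with Plod2 and Loxl4, both lower. The median log2 fold change was 0.18, with 23 higher and 17 lower, beside the median of 0.89 for the collagen chains.

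The prolyl 4-hydroxylases, which stabilise the helix, had opposite values for a pair of their catalytic subunits. P4ha2 was at 149.6, 184 and 275 CPM in the controls and 71.1, 107 and 117 CPM in the cKO libraries, with a log2 fold change of −1.04 (standard error 0.27) and an adjusted p of 0.0884 in edgeR and 0.00968 with the block. P4ha3 was at 2.07, 2.36 and 0.821 CPM and 33.5, 9.12 and 5.08 CPM, with a log2 fold change of 3.17 (standard error 0.78) and an adjusted p of 0.0841 in edgeR and 0.0172 with the block. Without cKO replicate 1 it was 2.03. P4hb, their common beta subunit, had a log2 fold change of −0.28 (standard error 0.17). Plod2, a lysyl hydroxylase that acts on the telopeptides of fibrillar collagens, was at 181, 479 and 862 CPM in the controls and 178, 155 and 200.3 CPM in the cKO libraries (log2 fold change −1.51, standard error 0.50, edgeR adjusted p = 0.133 and 0.0136 in DESeq2), and without control replicate 3 its log2 fold change was −0.90. Colgalt1, which adds galactose to hydroxylysine, differed by −0.05 on the log2 scale. The chaperone Serpinh1 was abundant and level at 1203, 1424 and 1508 CPM in the controls and 1144, 1722 and 1289 CPM in the cKO libraries, with a log2 fold change of 0.01. Fkbp10, Crtap, Ppib, Bmp1 and Pcolce, which act in folding, prolyl 3-hydroxylation and propeptide removal, overlapped between the groups, with log2 fold changes of 0.20 for Fkbp10, 0.50 for Crtap, −0.07 for Ppib, 0.40 for Bmp1 and 0.31 for Pcolce.

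Of the crosslinking oxidases, Loxl1 was at 11.7, 12.8 and 7.52 CPM in the controls and 86.8, 37.4 and 22.3 CPM in the cKO libraries. Its groups did not overlap, and its log2 fold change was 2.19 (standard error 0.50), with an adjusted p of 0.0759 in edgeR and 0.0186 with the block. Loxl4 was at 4.21, 33.1 and 27.7 CPM and 2.78, 2.39 and 8.17 CPM, with a log2 fold change of −2.28 (standard error 0.80) and an adjusted p of 0.146 in edgeR and 0.0157 in DESeq2. The abundant Lox and Loxl2 had log2 fold changes of 0.49 and −0.19, and both overlapped between the groups.

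Among the receptors, Itga1 and Itga2, alpha subunits of collagen-binding integrins, were lower in every cKO library. Itga1 was at 57.6, 38.2 and 50.5 CPM in the controls and 25.3, 20.5 and 20.4 CPM in the cKO libraries, with a log2 fold change of −1.14 (standard error 0.19) and an adjusted p of 0.0542 in edgeR and 0.0102 with the block. Itga2 was at 248, 211 and 196 CPM and 82.1, 63.7 and 127 CPM, with a log2 fold change of −1.26 (standard error 0.25) and an adjusted p of 0.0657 in edgeR and 0.0265 with the block. Both passed the criterion in the blocked fit and in DESeq2, as Col9a3 did among the chains. Their partner Itgb1 had a log2 fold change of 0.23. Ddr1, a receptor tyrosine kinase for collagen in epithelia, had a log2 fold change of −0.61 (standard error 0.21), with an adjusted p of 0.146 in edgeR and 0.0443 with the block, and its change was under the limit of 1.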

How the data were processed

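IEE of the mandibular first molar at E18.5 was captured by laser microdissection, and RNA‐seq libraries were prepared with an Illumina TruSeq kit, with 3 per genotype (Kdf1 fl/fl, and the same with K14-Cre). The submitters' processing notes name BWA 0.7.12, Picard 2.6.0 and StringTie, and the genome build, annotation, strand setting and counting program are not given in the sources used here. It is therefore not known whether overlapping genes share reads. For each gene the authors deposited an estimated count of reads, not normalised, and per library 10.9% to 11.5% of these values were not whole. TPM values, scaled by the authors for length and library, served for levels and limma. FPKM values, which the authors deposited as well, were not used for a test.

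Estimated counts were rounded and compared in R 4.3.3 with edgeR 4.0.16 (filterByExpr, TMM factors of 0.950 to 1.03, robust quasi-likelihood F-test, two-sided, Benjamini-Hochberg adjustment over 14131 genes). The SE was derived from the log2 fold change and F. The criterion, a log2 fold change of 1 or more in either direction at an adjusted p of 0.05 or less, is that of the study's methods. Alternatives were DESeq2 1.42.0, limma 3.58.1 on log2(TPM + 1) and log2(TPM + 0.1), other scalings and filters, other thresholds, the replicate number as a block, and the omission of each library in turn. Within groups, libraries varied by 34.3 to 73.3 times what sampling gives, and none was a duplicate. Deviations from the group means correlated at 0.135, 0.324 and 0.499 between libraries of the same number, with a sum of 0.958 that was the highest of 6 pairings (next 0.545). The numbers were used as a block on this check alone, and with 6 pairings it cannot show that they mark pairs.

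The genes named were Kdf1, the up to 5 members of each class with the highest mean TPM, the members past the criterion in edgeR, the blocked fit or DESeq2, and, of the enzymes and receptors, those past it and the 2 with the highest mean TPM of each role. All other members and the single markers were named after their values had been seen. The members and lists were chosen with earlier results of these data known. Promoters were taken from RefSeq (GRCm38.p6).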

Additional observations from a re-analysis of the deposited data

How the results depend on the processing

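The number of collagen genes past the criterion was 0 in edgeR. It was 11 with the replicate block, 10 in DESeq2, 1 with no filter on low counts, 1 with limma on log2(TPM + 0.1) and 13 at an unadjusted p with the same fold change, and it ranged from 0 to 8 when 1 library was left out, with 8 without cKO replicate 3. Of the enzymes and receptors, 0 passed in edgeR, 5 with the replicate block, 7 in DESeq2, 1 with no filter and 8 at an unadjusted p, with a range of 0 to 4 without 1 library and 4 without cKO replicate 3. DESeq2's size factors in edgeR, scaling by library size alone, a minimum of 10 counts in every library, limma on log2(TPM + 1) and adjusted p with no limit on the fold change left both counts at 0. Why the fits differ in their counts was not tested. The median log2 fold change of the 39 collagen genes was 0.89 and ranged from 0.49 (without cKO replicate 1) to 1.11 (without cKO replicate 3) when 1 library was left out. The median of the other class ranged from 0.45 (without cKO replicate 2) to 1.08, and those of the type VI and network classes stayed above 0 under each alternative run.

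Of the 44 named genes, 8 changed sign when some 1 library was left out, with ranges of −0.11 to 0.31 for Col18a1, −0.91 to 0.11 for Col1a1, −0.083 to 0.024 for Colgalt1, −0.011 to 1.08 for Lox, −0.89 to 0.31 for Loxl2, −0.087 to 0.93 for Pcolce, −0.16 to 0.057 for Ppib and −0.15 to 0.14 for Serpinh1. Under the other 8 alternatives 2 changed sign, Colgalt1 at 0.0023 with limma on log2(TPM + 0.1), 0.0023 on log2(TPM + 1) and 0.0051 with scaling by library size, and Serpinh1 at −0.0057 with no filter and −0.0080 with the replicate block. The log2 ratio difference ranged from −0.21 to 0.45 for Col1a1 to Col1a2 and from −0.13 to 0.082 for Col4a1 to Col4a2 when 1 library was left out. With 3 libraries per group, the exact tests of single ratios could not reach 0.05 (smallest p 0.1, or 0.25 for sign flips within pairs).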
